A study of Pagiophloeus tsushimanus with 15 samples.

Results

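Farnesol dehydrogenase-like unigenes were followed in larvae of the weevil Pagiophloeus tsushimanus, untreated or fed diets with an additive. They were taken from a table of transcript levels as the rows whose protein description contains the words farnesol dehydrogenase and whose mean level over all libraries is at least 1 TPM. TPM is a level per transcript length, scaled to an equal total in each library. Of 34486 assembled unigenes, 12 carry the description and 9 reach that mean, and these 9 are the members described here. They were chosen by their mean TPM over all libraries, so these means are given as a description. The rule itself uses no difference between diets, but members and lists were chosen with earlier results of these data known. The lowest member, TRINITY_DN11000_c0_g1, has a mean of 5.12 TPM, and the highest described row outside, TRINITY_DN21087_c0_g1, has 0.947 TPM.

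Farnesol dehydrogenase belongs to the short-chain dehydrogenases, a family of enzymes that oxidise alcohols or reduce ketones with NAD or NADP as cofactor. In the mosquito Aedes aegypti an enzyme of this kind oxidises farnesol to farnesal on the way to juvenile hormone, the isoprenoid hormone that keeps an insect larval. Farnesal is then oxidised to farnesoic acid by an aldehyde dehydrogenase, methylated by juvenile hormone acid O-methyltransferase and epoxidised by a cytochrome P450. The name in the table rests on similarity to proteins of other beetles, 5 members matching Dendroctonus ponderosae, 3 Sitophilus oryzae and 1 Diabrotica virgifera virgifera, and the substrate of none of the 9 was measured here. The table holds no sequences, so none is shown.

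The 15 libraries were made from whole bodies of larvae, 3 for each of 5 diets. Larvae were untreated, or their diet held EO, an additive the labels do not spell out, at 10 mg/g (low EO) or 30 mg/g (high EO), or D-camphor, a volatile monoterpenoid ketone of plants, at 17 mg/g (low D-camphor) or 41 mg/g (high D-camphor). Diets with an additive are called terpenoid diets here for short, though the treatment labels give no class for EO. Age is not labelled, nor is it said whether replicates are separate animals or pools, so p-values measure only the spread between these libraries. TPM keeps no read depth; each library had 11478 to 13659 unigenes over 1 TPM. As a check of the whole-body label, 22 unigenes with muscle words in their description summed to 9234 to 13915 TPM over the libraries and 83 with midgut words to 60258 to 82214 TPM. The 7 found by fat body words summed to 0.14 to 13.2 TPM, and the most abundant of them is described as a putative vitellogenin receptor, so a defining fat body transcript was not seen under these words. In 3 libraries, low EO replicate 1, high EO replicate 1 and high D-camphor replicate 2, the 53 unigenes with cuticle words summed to 33411, 17555 and 21692 TPM, against 343 to 8124 TPM in the other 12, and the same 3 have the highest scores on the first principal component, 33.7 to 57.7 against -36.4 to 14.8 in the others. Results were therefore also computed without these 3. All of them are terpenoid libraries, so leaving them out changes terpenoid means but not the untreated mean. In whole bodies, fewer cells of a type and less RNA per cell cannot be told apart.

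The members spanned more than 2 orders of magnitude in mean level. TRINITY_DN37134_c0_g1 had a mean of 1331 TPM and ranked 157 among all unigenes, TRINITY_DN414_c0_g1 had 949 TPM and ranked 220, and TRINITY_DN7750_c0_g2 had 371 TPM and ranked 427. A middle set of 4 lay between 44.2 and 76.3 TPM, and the last pair, TRINITY_DN39426_c0_g1 and TRINITY_DN11000_c0_g1, at 6.80 and 5.12 TPM. Together the 9 held 0.116% to 0.527% of the TPM of a library, of which TRINITY_DN37134_c0_g1 alone took 27.8% to 61.8%. The 3 rows below the mean of 1 TPM, TRINITY_DN21087_c0_g1, TRINITY_DN16191_c0_g1 and TRINITY_DN38056_c0_g1, reached at most 2.80, 1.58 and 0.45 TPM in a library.

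The named steps before and after farnesol oxidation covered a wide range of levels. For the isoprenoid backbone, which builds the precursor of farnesol from acetyl-CoA, 12 unigenes were found by words in their description. The highest, TRINITY_DN16583_c0_g1, described as isopentenyl-diphosphate Delta-isomerase 1, had a mean of 15.9 TPM. Several of the 12 have means under 1 TPM and match species that are not insects. Among these is the one described as farnesyl pyrophosphate synthase, TRINITY_DN12082_c0_g1, at 0.124 TPM, which matches Strongylocentrotus purpuratus. The unigene described as 3-hydroxy-3-methylglutaryl coenzyme A reductase, TRINITY_DN12108_c0_g2, had a mean of 0.512 TPM. After farnesol, the unigene described as juvenile hormone acid O-methyltransferase, TRINITY_DN41999_c0_g1, had 0.374 TPM and never passed 0.83 TPM. An aldehyde dehydrogenase described as mitochondrial, TRINITY_DN8672_c0_g1, stood at 379 TPM. Among unigenes described as juvenile hormone epoxide hydrolase, an enzyme that degrades the hormone, TRINITY_DN41_c0_g1, TRINITY_DN7122_c0_g1 and TRINITY_DN38821_c0_g1 had mean levels of 876, 611 and 455 TPM. These are levels per length in whole bodies, not differences between diets.

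**Figure D1:**
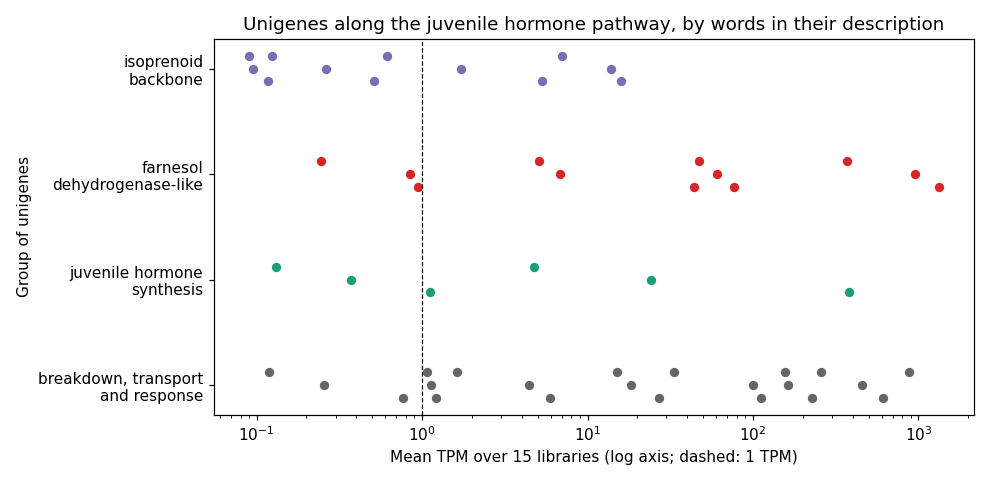
Mean TPM over 15 libraries on a log axis for each unigene found by words in its description, in rows for the isoprenoid backbone, the 12 farnesol dehydrogenase-like rows, juvenile hormone synthesis (aldehyde dehydrogenases and the acid O-methyltransferase) and hormone breakdown, transport and response. The 3 leading farnesol dehydrogenase-like unigenes, at 371 to 1331 TPM, lie above all 12 backbone unigenes, which end at 15.9 TPM. TRINITY_DN37134_c0_g1 and TRINITY_DN414_c0_g1, at 1331 and 949 TPM, also lie above the highest hormone breakdown unigene, at 876 TPM. TRINITY_DN7750_c0_g2, at 371 TPM, lies below it.

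TRINITY_DN414_c0_g1, the member described from Diabrotica, showed the clearest separation of diets. Untreated larvae had 699, 571 and 484 TPM. Larvae on low EO had 698, 1242 and 1080 TPM, and those on high EO had 1187, 1143 and 1352 TPM. On D-camphor the values were 1052, 1044 and 798 TPM at 17 mg/g and 1112, 805 and 970 TPM at 41 mg/g. In 11 of 12 terpenoid libraries the level lay above the highest untreated library, the exception being low EO replicate 1, and the groups did not overlap on high EO or at either dose of D-camphor. At least 11 of 12 libraries above the highest untreated one was found for 0.887% of the tested unigenes.

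The fold changes of TRINITY_DN414_c0_g1 on the log2(TPM + 1) scale lay between 0.72 and 1.08 on the 4 diets, and none passed the test. They were 0.76 on low EO (SE 0.22, adjusted p = 0.713 by limma), 1.08 on high EO (SE 0.22, adjusted p = 0.12), 0.73 on low D-camphor (SE 0.22, adjusted p = 0.475) and 0.72 at 41 mg/g (SE 0.22, adjusted p = 0.514). The mean of the 4 terpenoid diets was 0.82 above untreated (SE 0.18, 95% interval 0.44 to 1.21, adjusted p = 0.184). Its unadjusted p of 0.000532 was the 34th smallest of 12510. Without low EO replicate 1, TRINITY_DN414_c0_g1 passed the test on high EO (adjusted p = 0.0418, log2 fold change 1.08) and for the mean of the 4 diets (adjusted p = 0.0425, log2 fold change 0.88). Its level in that library, 698 TPM, is the lowest of the 12 terpenoid libraries. That library is in neither group of the high EO comparison, where the log2 fold change stayed at 1.08. It enters there through the estimate of the spread, which all diets share in the fit. Over all 15 refits that leave out 1 library the adjusted p ran from 0.0418 to 0.326 on high EO and from 0.0425 to 0.588 for the mean. Without the 3 libraries of high cuticle level together the values were 0.102 and 0.0616.

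TRINITY_DN7750_c0_g2, described from the rice weevil Sitophilus oryzae, had the largest difference from untreated larvae among the members, on high EO. Untreated libraries stood at 294, 155 and 102 TPM. Low EO gave 141, 385 and 389 TPM and high EO gave 487, 553 and 607 TPM. D-camphor gave 537, 473 and 371 TPM at 17 mg/g and 488, 206 and 372 TPM at 41 mg/g. All libraries on high EO and low D-camphor lay above all untreated ones, while 1 library on low EO and 1 on high D-camphor lay inside the untreated range, both of them libraries of high cuticle level. Against untreated, the log2 fold change was 0.72 on low EO (SE 0.45, adjusted p = 0.713), 1.71 on high EO (SE 0.45, 95% interval 0.72 to 2.69, adjusted p = 0.276), 1.44 on low D-camphor (SE 0.45, adjusted p = 0.497) and 1.0 at 41 mg/g (SE 0.45, adjusted p = 0.797). For the mean of the 4 diets it was 1.22 (SE 0.36, adjusted p = 0.426). None passed the test in any of the 15 refits without 1 library, and the lowest adjusted p, on high EO, was 0.0837 without untreated replicate 1.

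TRINITY_DN37134_c0_g1, the most abundant member, varied more within diets. Untreated larvae had 1147, 895 and 394 TPM. On EO the values were 755, 3256 and 1585 TPM at 10 mg/g and 880, 1464 and 2022 TPM at 30 mg/g. On D-camphor they were 1516, 1558 and 1528 TPM at 17 mg/g and 1142, 444 and 1379 TPM at 41 mg/g. The libraries on low D-camphor lay close together and above all untreated ones, and every other diet overlapped with untreated. The log2 fold change was 1.09 on low EO (SE 0.57, adjusted p = 0.713), 0.89 at 30 mg/g (SE 0.57, adjusted p = 0.637), 1.05 on low D-camphor (SE 0.57, adjusted p = 0.852) and 0.26 on high D-camphor (SE 0.57, adjusted p = 0.998). The last ran from -0.19 to 0.76 when 1 library was left out and was below 0 without untreated replicate 3 or high D-camphor replicate 3. Its mean over the terpenoid diets was 0.82 above untreated (SE 0.45, adjusted p = 0.847), nearly the value of TRINITY_DN414_c0_g1 with an SE 2.56 times as large. The 3 libraries of high cuticle level held its lowest value in each of their diets, and without them the mean difference was 1.16 (adjusted p = 0.377). Since all 3 are terpenoid libraries, leaving out these low values had to raise that difference.

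**Figure D2:**
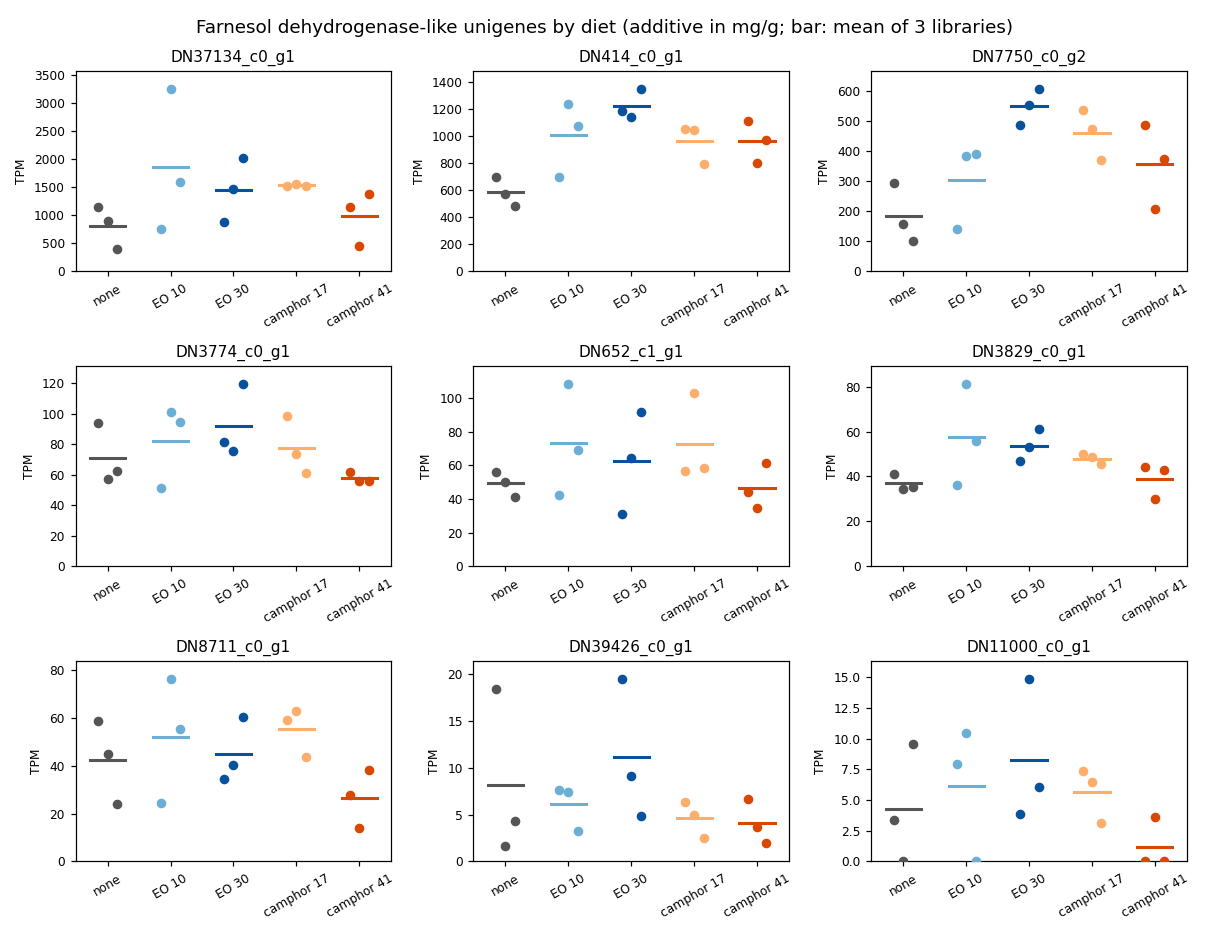
TPM of each of the 9 members in each library, by diet (additive in mg/g, none for untreated), with a bar at the mean of 3 libraries and a linear axis from 0 in each panel. For TRINITY_DN414_c0_g1 every terpenoid library but 1 lies above the untreated maximum of 699 TPM, while TRINITY_DN39426_c0_g1 and TRINITY_DN11000_c0_g1 overlap with untreated on every terpenoid diet.

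Of the middle set, TRINITY_DN3829_c0_g1 was the steadiest within diets, with a residual SD of 0.31 log2 units beside a median of 0.26 for all tested unigenes. Its untreated levels were 41.1, 34.5 and 35.4 TPM, and low EO gave 36.0, 81.2 and 55.6 TPM. High EO gave 46.7, 53.3 and 61.0 TPM and low D-camphor gave 49.8, 48.6 and 45.4 TPM, in both cases above all untreated libraries. High D-camphor gave 44.1, 30.1 and 42.9 TPM, on both sides of the untreated range. The log2 fold changes were 0.55 (SE 0.24, adjusted p = 0.713) and 0.52 (SE 0.24, adjusted p = 0.568) on low and high EO, 0.37 (SE 0.24, adjusted p = 0.92) on low D-camphor and 0.06 (SE 0.24, adjusted p = 0.998) on high D-camphor. The last was below 0 without high D-camphor replicate 1 or 3. For the mean of the 4 diets it was 0.38 (SE 0.19, adjusted p = 0.827).

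The other members of the middle set overlapped with untreated larvae on nearly every diet. TRINITY_DN3774_c0_g1 ranged from 57.5 to 93.7 TPM in untreated larvae, and from 51.1 to 101.1, 75.5 to 120, 61.1 to 98.5 and 55.6 to 62.0 TPM on the 4 terpenoid diets (low and high EO, then low and high D-camphor), with medians of 62.7, 94.7, 81.6, 73.8 and 56.1 TPM in that order. Its log2 fold change on high EO was 0.37 (SE 0.28, adjusted p = 0.694). TRINITY_DN652_c1_g1 ranged from 41.02 to 56.2 TPM in untreated larvae and, on the same 4 diets, from 42.2 to 108, 30.9 to 91.8, 56.9 to 103 and 34.6 to 61.3 TPM, so that low D-camphor alone lay above untreated. A second abundant unigene, TRINITY_DN652_c0_g1 (507 TPM, described as unknown), shares the DN part of its identifier but not the c part. Whether reads were divided between the pair was not tested. TRINITY_DN8711_c0_g1 ranged from 24.0 to 58.4 TPM in untreated larvae and from 24.3 to 76.1, 34.3 to 60.3, 43.7 to 62.6 and 14.0 to 38.1 TPM on the terpenoid diets. It had its lowest mean on high D-camphor, 26.7 ± 12.1 TPM (SD, n = 3) against 42.4 ± 17.3 TPM in untreated larvae (log2 difference -0.66, SE 0.46, adjusted p = 0.972).

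The 2 least abundant members varied widely within diets. TRINITY_DN39426_c0_g1 ranged from 1.67 to 18.4 TPM without terpenoid and from 1.99 to 19.4 TPM over the 12 terpenoid libraries. TRINITY_DN11000_c0_g1 was listed at 3.35, 0 and 9.59 TPM without terpenoid, at 7.97, 10.4 and 0 TPM on low EO and at 3.88, 14.8 and 6.07 TPM on high EO. On D-camphor it was listed at 7.39, 6.46 and 3.15 TPM at the low dose and at 0, 3.66 and 0 TPM at the high one. Their residual SDs of 0.90 and 1.37 log2 units exceed those of 93.7% and 98.0% of the tested unigenes.

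Against untreated larvae, limma called 0 of the 9 members on any of the 4 diets, where an adjusted p under 0.05 is a call. All 9 pass the filter of the fit, a mean of 1 TPM, which is the level that chose them. Of all 12510 tested unigenes, 0.0719% were called on low EO, 0.184% on high EO, 0.04% on low D-camphor and 0.016% at 41 mg/g. On low EO, 2 members, TRINITY_DN414_c0_g1 and TRINITY_DN3829_c0_g1, were higher with an unadjusted p under 0.05, as were 1.22% of the tested unigenes. On high EO and on either dose of D-camphor the 2 were TRINITY_DN414_c0_g1 and TRINITY_DN7750_c0_g2, against 3.46%, 4.56% and 2.35% of the tested unigenes. No member was lower at that threshold, where 5.08%, 5.34%, 1.68% and 3.89% of the tested unigenes were, in the order of the diets above. The libraries of a diet lay above all untreated ones for 0, 3, 5 and 1 members on the 4 terpenoid diets, against 1.44%, 4.56%, 8.35% and 3.41% of the tested unigenes. The untreated libraries had a cuticle sum of 361 to 859 TPM. It was 343 to 33411 TPM on low EO and 996 to 17555 TPM on high EO. On D-camphor it was 1036 to 4896 TPM at 17 mg/g and 2766 to 21692 TPM at 41 mg/g. All libraries on high EO and on D-camphor thus lay above the untreated ones. The part of cuticle level in these comparisons was not tested beyond leaving out the 3 libraries. The 4 comparisons share the untreated libraries and are not independent of one another.

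By the mean on the log2 scale, 9, 9, 8 and 4 of the 9 members were above untreated on the 4 diets in that order, as were 29.6%, 40.5%, 55.3% and 41.8% of the tested unigenes. The median log2 fold change of the members was 0.47, 0.72, 0.51 and -0.10, beside -0.12, -0.06, 0.03 and -0.04 for all tested unigenes. Scaling the libraries by the median of ratios moved the median of all unigenes on low EO by 0.14 and left these 4 counts of members at 9, 9, 8 and 4. With scaling the shares of tested unigenes above untreated became 53.5%, 54.4%, 50.2% and 50.2%, so the shares depend on the scaling. The count on low EO was 5 without low EO replicate 2, the library with the highest summed member level of 5267 TPM, and that on high D-camphor was 2 without high D-camphor replicate 3. For the mean of the 4 diets, limma called 0 of the 9 members and 0.0879% of the tested unigenes. There 9 members and 38.6% of the tested unigenes lay above untreated, with a median of 0.33 beside -0.05 for all. With scaling these were 9 members and 53.1% of the tested unigenes. In that direction 2 members, TRINITY_DN414_c0_g1 and TRINITY_DN7750_c0_g2, had an unadjusted p under 0.05, as had 2.57% of the tested unigenes.

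**Figure D3:**
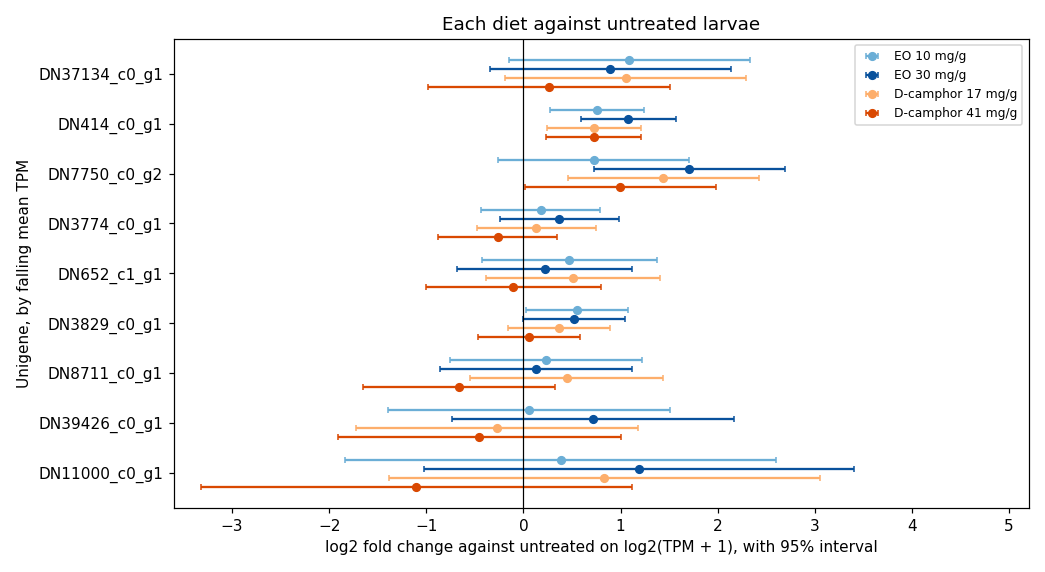
Log2 fold change of each member against untreated larvae on the log2(TPM + 1) scale, with its 95% interval from limma, in order of falling mean TPM and coloured by diet. The 4 intervals of TRINITY_DN414_c0_g1 lie above 0, as do 3 of the 4 of TRINITY_DN7750_c0_g2, and no difference passed the test after adjustment.

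The F test of any difference among the 5 diets called 0 of the 9 members and 0.0719% of the tested unigenes. The lowest p-values were those of TRINITY_DN414_c0_g1 (adjusted p = 0.324 by limma) and TRINITY_DN7750_c0_g2 (adjusted p = 0.464), followed by TRINITY_DN3829_c0_g1 (adjusted p = 0.629). Only the first pair had an unadjusted p under 0.05, as had 8.83% of the tested unigenes. The order of the group means of TRINITY_DN414_c0_g1 was 585 ± 108 TPM in untreated larvae, 963 ± 154 and 965 ± 144 on high and low D-camphor, 1007 ± 280 on low EO and 1227 ± 110 on high EO (SD, n = 3 each). Each step between neighbouring terpenoid means was smaller than the larger of the 2 SDs, and the step from untreated to the next mean was larger than both.

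Between the doses of EO, limma called 0 members and 0.00799% of the tested unigenes, with 0 members and 4.97% of unigenes at an unadjusted p under 0.05. TRINITY_DN7750_c0_g2 had the largest step, 549 ± 59.9 TPM at 30 mg/g against 305 ± 142 TPM at 10 mg/g (SD, n = 3 each), with no overlap and a log2 difference of 0.98 (SE 0.45, adjusted p = 0.998). The groups lay apart in this direction for 6.63% of the tested unigenes. TRINITY_DN414_c0_g1 differed by 0.32 (SE 0.22, 95% interval -0.16 to 0.81, adjusted p = 0.999). The count of members with the higher mean at 30 mg/g was 5, beside 61.4% of the tested unigenes (50.4% with median-of-ratios scaling). This count became 9 without low EO replicate 2 or without high EO replicate 1.

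Between the doses of D-camphor no member passed the test. All 9 had a lower log2 mean at 41 than at 17 mg/g, where 38.2% of the tested unigenes had a higher one, and the median difference was -0.44 beside -0.07 for all. Limma called 0 members and 0% of the tested unigenes. TRINITY_DN8711_c0_g1 had the only unadjusted p under 0.05 among the members, in the lower direction that 7.52% of the tested unigenes shared. It stood at 26.7 ± 12.1 TPM against 55.2 ± 10.1 TPM (SD, n = 3 each) with no overlap, a log2 difference of -1.11 (SE 0.46, adjusted p = 0.466). TRINITY_DN37134_c0_g1 (-0.79, SE 0.57, adjusted p = 0.712) and TRINITY_DN3829_c0_g1 (-0.31, SE 0.24, adjusted p = 0.737) also had groups without overlap, as had 15.8% of the tested unigenes in this direction. TRINITY_DN11000_c0_g1 had the largest difference, -1.93 (SE 1.02, adjusted p = 0.595), with 2 of 3 values at 41 mg/g listed at 0. TRINITY_DN414_c0_g1 had nearly equal means, 963 and 965 TPM. The count of members higher at 41 mg/g became 1 with median-of-ratios scaling, where 48.9% of the tested unigenes were higher. This count was 2 without low D-camphor replicate 1, and 1 without low D-camphor replicate 2, high D-camphor replicate 2 or high D-camphor replicate 3. The summed cuticle level was 1036 to 4896 TPM at 17 mg/g and 2766 to 21692 TPM at 41 mg/g, and its part in these differences was not tested beyond leaving out the 3 libraries, after which 1 member had a higher mean.

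The doses of EO and D-camphor are not matched, so the additives are set side by side only as the diets were given. The mean of both EO diets was above the mean of both D-camphor diets for 8 of 9 members and 31.2% of the tested unigenes, with a median log2 difference of 0.32 beside -0.08, and limma called 0 members and 0.048% of the tested unigenes. The smallest p-values among the members were those of TRINITY_DN3829_c0_g1, 0.32 higher (SE 0.17, 95% interval -0.05 to 0.69, adjusted p = 0.513), and TRINITY_DN3774_c0_g1, 0.34 higher (SE 0.20, 95% interval -0.09 to 0.77, adjusted p = 0.555). No member had an unadjusted p under 0.05, against 10.6% of the tested unigenes. Scaling moved the median of all unigenes by 0.11 here and put 9 members and 54.6% of the tested unigenes higher.

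Within a diet, the 7 more abundant members went up and down together from library to library. The deviations of log2(TPM + 1) from the mean of the diet had a median correlation of 0.81 over their 21 pairs, from 0.53 to 0.96, across 15 libraries. The closest pair was TRINITY_DN37134_c0_g1 and TRINITY_DN8711_c0_g1, at 0.96, followed by TRINITY_DN414_c0_g1 and TRINITY_DN7750_c0_g2 at 0.94. The share of tested unigenes that were correlated as highly with the more abundant member of a pair ran from 0.016% to 6.46% over the 21 pairs, with a median of 0.759%. The 15 pairs that include TRINITY_DN39426_c0_g1 or TRINITY_DN11000_c0_g1 had a median of -0.05. These correlations are descriptions, since all points of a library share its preparation, its scaling and its tissue make-up.

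In 9 of the 15 libraries the 7 more abundant members lay on one side of the mean of their diet. All 7 lay above the mean of their diet in untreated replicate 1, low EO replicates 2 and 3 and high EO replicate 3, and all 7 lay below it in untreated replicate 3, low EO replicate 1, high EO replicate 1, low D-camphor replicate 3 and high D-camphor replicate 2. Of all tested unigenes, 29.8%, 56.2%, 52% and 62.6% lay above the mean of the diet in the 4 high libraries and 77.2%, 42.2%, 41.8%, 50.4% and 57.3% in the 5 low ones, each in the order given. The low libraries include the 3 of high cuticle level. They also include untreated replicate 3 and low D-camphor replicate 3, where the cuticle sum was 554 and 3058 TPM, and the part of cuticle level in the deviations was not tested. Without the 3 libraries, limma called no member for the mean difference of the terpenoid diets from untreated, where 23 tested unigenes were called. The 4 members with an unadjusted p under 0.05 were TRINITY_DN414_c0_g1 (log2 fold change 0.92), TRINITY_DN7750_c0_g2 (1.45), TRINITY_DN37134_c0_g1 (1.16) and TRINITY_DN3829_c0_g1 (0.52). Their adjusted p was 0.0616, 0.101, 0.377 and 0.228 by limma. The share of all tested unigenes under that unadjusted threshold is not available for this refit. Whether 4 of 9 members is more than that share was therefore not tested. This refit was chosen after the data had been seen.

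**Figure D4:**
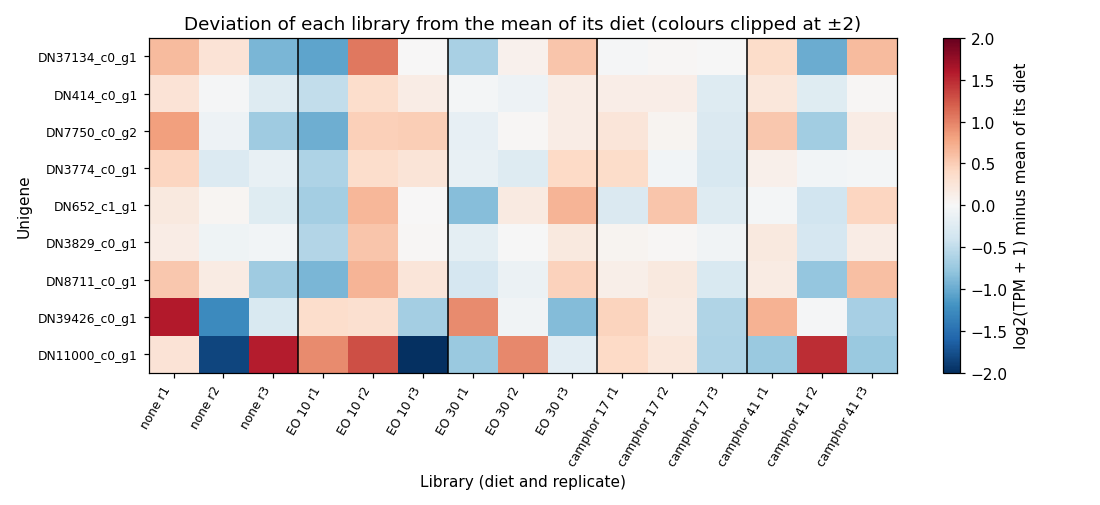
Deviation of log2(TPM + 1) from the mean of the diet for each member (rows, by falling mean TPM) in each library (columns, r for replicate), red above and blue below, with vertical lines between diets. The upper 7 rows share their colour in most columns, all below the mean in low EO replicate 1 and all above it in low EO replicate 2, while the lowest 2 rows do not follow them.

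Each member was matched with the unigenes most alike to it in pattern. Over 15 libraries, TRINITY_DN3314_c0_g1, described from the beetle Asbolus verrucosus as a protein with a short-chain dehydrogenase (adh short) domain, had a Pearson correlation of 0.987 with TRINITY_DN414_c0_g1 on the log2(TPM + 1) scale. Its levels were 293, 256 and 201 TPM in untreated larvae and 508, 464 and 517 TPM on high EO. Next came a probable phospholipid hydroperoxide glutathione peroxidase, TRINITY_DN1569_c0_g1, an enzyme type that reduces lipid peroxides, at 0.934. TRINITY_DN7750_c0_g2 was most like a glutathione S-transferase 1-like unigene, TRINITY_DN5591_c0_g1, of a family that joins glutathione to foreign compounds, at 0.976. Its second was cytochrome b5, TRINITY_DN22989_c0_g1, an electron donor to P450 enzymes, at 0.956.

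The other members had less close matches. Outside the members, TRINITY_DN37134_c0_g1 was most like TRINITY_DN14073_c0_g2, described as unknown, at 0.884, and the P450 CYP6DF1, TRINITY_DN1247_c0_g1, at 0.85. Its correlations with the members TRINITY_DN3829_c0_g1 and TRINITY_DN8711_c0_g1 were 0.898 and 0.859. TRINITY_DN8711_c0_g1 was also most like TRINITY_DN14073_c0_g2, at 0.922, and TRINITY_DN652_c0_g1, at 0.915. For TRINITY_DN3829_c0_g1 the match outside the members was a thioredoxin reductase 1 unigene, TRINITY_DN25835_c0_g1, which keeps thioredoxin reduced, at 0.928, and then TRINITY_DN1371_c0_g1, uncharacterized, at 0.871. TRINITY_DN3774_c0_g1 was nearest to the hypothetical protein TRINITY_DN5119_c0_g1 at 0.88 and to a cysteine protease, cathepsin L 1 (TRINITY_DN10661_c0_g1), at 0.85. TRINITY_DN652_c1_g1 was nearest to TRINITY_DN12286_c0_g1 and TRINITY_DN23803_c0_g1, neither of them described, at 0.871 and 0.87. TRINITY_DN39426_c0_g1 and TRINITY_DN11000_c0_g1 had no match above 0.807, which TRINITY_DN4601_c0_g1 and TRINITY_DN9516_c0_g1 (0.762) gave for the former and TRINITY_DN9043_c0_g1 (0.804) and TRINITY_DN8730_c0_g1 (0.803) for the latter. Among 12510 unigenes the best match of any pattern is high by selection.

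**Figure D5:**
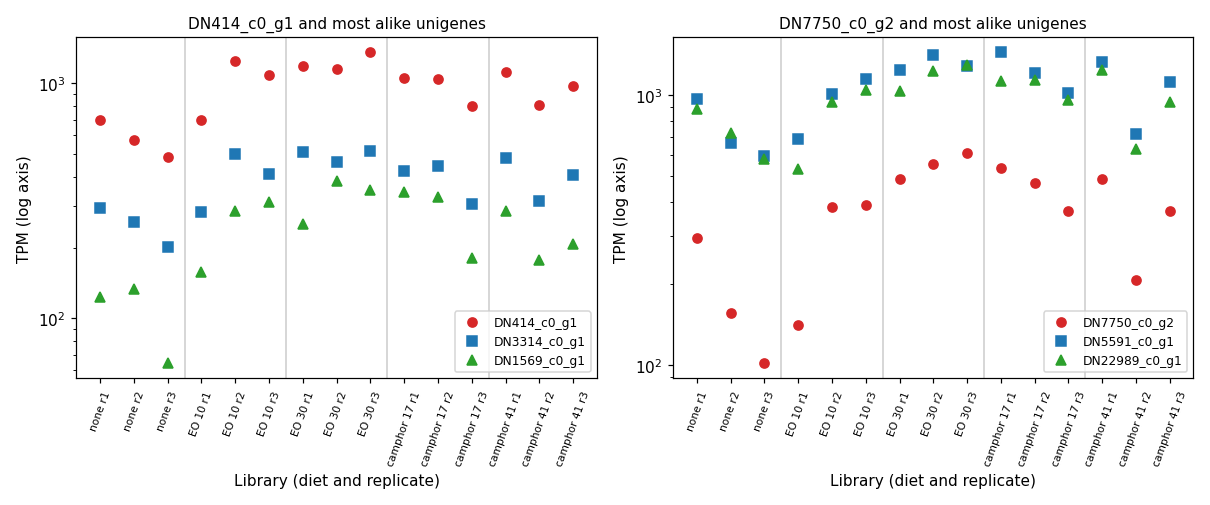
TPM on a log axis in each of the 15 libraries (r for replicate, lines between diets) for TRINITY_DN414_c0_g1 and TRINITY_DN7750_c0_g2, each with the 2 unigenes outside the members most alike to it. TRINITY_DN3314_c0_g1 follows TRINITY_DN414_c0_g1 in nearly every library, at a correlation of 0.987, and TRINITY_DN5591_c0_g1 and TRINITY_DN22989_c0_g1 share the low values of TRINITY_DN7750_c0_g2 in low EO replicate 1 and high D-camphor replicate 2.

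Of the unigenes found by words for the hormone pathway, 1 passed the test against untreated larvae. Whether the members act in that pathway was not measured. None of the 5 tested isoprenoid backbone unigenes was called by limma in any comparison, and 3-hydroxy-3-methylglutaryl coenzyme A synthase (TRINITY_DN3461_c0_g1) on low EO, with a log2 fold change of -0.47 (adjusted p = 0.713), and the Delta-isomerase (TRINITY_DN16583_c0_g1) on high D-camphor, with -0.33 (adjusted p = 0.776), had the only unadjusted p under 0.05. The 4 tested unigenes found by the words for juvenile hormone synthesis are all aldehyde dehydrogenases of broad description. None was called, and 1, TRINITY_DN9224_c0_g1, had an unadjusted p under 0.05, between the doses of D-camphor (1.27, adjusted p = 0.506). Of 19 tested unigenes for hormone breakdown, transport and response, 1 was called, on high EO, where 0.184% of all tested unigenes were. This was a juvenile hormone epoxide hydrolase 1-like unigene (TRINITY_DN1820_c1_g1), a type of enzyme that inactivates the hormone by hydrolysing its epoxide. It had 55.4, 41.1 and 29.6 TPM without terpenoid and 282, 222 and 214 TPM on high EO, with no overlap (log2 fold change 2.51, SE 0.35, adjusted p = 0.0145). On that diet 9 of the 19 were higher and 1 was lower at an unadjusted p under 0.05, as were 3.46% and 5.34% of all tested unigenes, with a median log2 fold change of 0.98 for the list beside -0.06 for all tested unigenes. On low EO, low D-camphor and high D-camphor, 3, 5 and 1 were higher and 0 lower. Of all tested unigenes, 1.22%, 4.56% and 2.35% were higher there and 5.08%, 1.68% and 3.89% lower. The list medians were 0.54, 0.26 and 0.41, beside -0.12, 0.03 and -0.04 for all.

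The members also stood beside 12 tested unigenes of other short-chain dehydrogenases, none of which was called in any comparison. Their median log2 fold change was -0.17, -0.12, -0.06 and 0.11 on the 4 terpenoid diets, and 1, 2, 2 and 0 had an unadjusted p under 0.05, as had 6.31%, 8.8%, 6.24% and 6.24% of all tested unigenes. Those were TRINITY_DN12181_c0_g2, described as a 15-hydroxyprostaglandin dehydrogenase, on low EO (-0.41, adjusted p = 0.713) and low D-camphor (0.52, adjusted p = 0.598), the similarly described TRINITY_DN27454_c0_g1 on high EO (-1.74, adjusted p = 0.529), and TRINITY_DN7149_c0_g2, of family 16C, on high EO (-0.78, adjusted p = 0.567) and low D-camphor (-0.79, adjusted p = 0.792). The medians of the farnesol dehydrogenase-like members on the same diets were 0.47, 0.72, 0.51 and -0.10, and the difference between the lists was not tested. The words for this list did not find TRINITY_DN3314_c0_g1, whose description also names a short-chain dehydrogenase domain. Its mean was 250 TPM in untreated larvae and 398, 496, 391 and 401 TPM on the same diets. It was picked for its likeness to TRINITY_DN414_c0_g1, and other unigenes missed by the words were not searched for.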

How the data were processed

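RNA of whole larval bodies came from 15 libraries, grouped by the treatment field into 5 diets of 3. It was extracted with TRIzol and made into libraries with NEBNext Ultra kits, per the labels' protocols. The deposited values are TPM, with 2 decimals, for 34486 unigenes. No aligner, assembler or counting method is given in the sources used here, beyond the TRINITY prefix of the unigene identifiers. Columns carry the letter of the diet and the replicate, as the titles do, and were matched on both. Depth and counting precision are unknown, as TPM holds no counts.

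A linear model with 1 mean per diet was fitted to log2(TPM + 1) for the 12510 unigenes that averaged 1 TPM or more, using limma 3.58.1 (R 4.3.3) with a variance trend. It had 10 residual degrees of freedom and was first tested on simulated data for high EO against untreated. There it called 53% of 100 unigenes changed 2-fold and 84% of 100 changed 4-fold, with 6 false calls. Many 2-fold changes were thus missed in the simulation. Tests were two-sided, with Benjamini-Hochberg adjustment over every tested unigene and a threshold of 0.05. Named are all members, the 2 most alike unigenes of each outside the members, and up to 3 unigenes per pathway list and comparison with the lowest p. Members and lists were chosen with earlier results of these data known. As alternatives, the pseudocount was set to 0.1, the filter was removed or raised to 5 TPM, libraries were scaled by the median of ratios, a replicate block was added, the compared groups were fitted alone, and each library was left out in turn. Leaving out 3 libraries together was added after seeing the data. Figures were drawn with matplotlib 3.10.9.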

Additional observations from a re-analysis of the deposited data

How the results depend on the processing

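Of 72 fold changes of the 9 members in 8 comparisons, 27 took both signs when each library was left out in turn. For the 33 fold changes and F tests whose values the report prints, all 224 refits under other settings and 489 of 495 without 1 library kept their direction and side of the threshold. Of the rest, 2 passed it, both of TRINITY_DN414_c0_g1 without low EO replicate 1, and 4 changed sign, those of TRINITY_DN37134_c0_g1 (range -0.19 to 0.76) and TRINITY_DN3829_c0_g1 (-0.036 to 0.23) on high D-camphor. Members called ran from 0 to 1 without 1 library on high EO and for the mean of the 4 diets, and were 0 under every other setting and in every other comparison. Members with a higher mean ran, without 1 library, from 5 to 9 on low EO, 2 to 5 on high D-camphor, 4 to 9 between the EO doses and 0 to 2 between the D-camphor doses. The last was 1 with scaling and 1 without the 3 libraries of high cuticle level.

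Over all unigenes, the calls were 9 on low EO, 23 on high EO, 5 on low D-camphor, 2 on high D-camphor, 11 for the mean of the 4 diets, 1 between the EO doses, 0 between the D-camphor doses, 6 between the additives and 9 by the F test. Without 1 library they ran, in that order, from 4 to 10, 8 to 26, 1 to 8, 1 to 11, 7 to 26, 1 to 5, 0 to 9, 6 to 11 and 8 to 15. Without a filter they were 42, 57, 45, 51, 85, 5 and 11 in the first 7 and 53 by the F test. A filter at 5 TPM gave 11 on low D-camphor and 15 by the F test, and a pseudocount of 0.1 gave 5 on high D-camphor, 2 between the EO doses and 15 by the F test. Median-of-ratios scaling gave 14 on high EO, of which 0 were lower against 10 without scaling, 8 (1 lower, against 0) and 5 on low and high D-camphor and 17 for the mean. A fit to the compared groups gave 1 on low EO, 25 and 0 on low and high D-camphor, 0 between the EO doses and 16 between the D-camphor doses. Without the 3 libraries there were 5 on high D-camphor, 23 for the mean and 0 between the EO doses. The cause of these moves was not tested.

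Libraries with the same replicate number in the titles had correlations of their deviations from -0.34 to 0.56 over 30 pairs, and 6 of 15 libraries were most like one of the same number, so the numbers were not taken to pair them. With a replicate block 12 unigenes were called on high EO and 1 on low D-camphor, and no member. Depth cannot be recovered from TPM, so no counting error can be given for the low values of TRINITY_DN11000_c0_g1 and TRINITY_DN39426_c0_g1.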
